A study of Mus musculus with 24 samples.

Results

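Cthrc1, Postn, Fap, Lrrc15, Fn1 and Pdpn are genes of injury-activated fibroblasts, the cells that lay down scar matrix after tissue damage. They were chosen by name, with earlier results of these data known, as 6 of the 40141 genes in a count table of mouse aorta. All 6 passed the filter on low counts. Under Ang-II/BAPN, Cthrc1, Fap and Pdpn rose in Cthrc1-/- aortas and in wild type aortas, where 7.03% and 13.3% of tested genes were called higher. Treated and PBS libraries of a genotype did not overlap for these genes, but the share of all tested genes without overlap was not counted. Postn and Fn1, by far the most abundant of the 6, moved together from library to library and did not pass the test in either genotype. Lrrc15 passed the test in wild type aortas. Its call there was lost when 4 libraries with intestinal transcripts were left out, which kept only 2 of the 6 treated wild type libraries. Between the genotypes only Cthrc1 itself passed the test, and it was lower in treated Cthrc1-/- aortas.

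The 24 libraries came from aortas of 4 kinds of mice, with 6 libraries of each kind: Cthrc1-/- mice given Ang-II/BAPN, Cthrc1-/- mice given PBS, wild type mice given Ang-II/BAPN and wild type mice given PBS. Ang-II is angiotensin II, a hormone that raises blood pressure, and BAPN is β-aminopropionitrile, which blocks the lysyl oxidases and with them the cross-linking of collagen and elastin. The pair is used to bring about aortic aneurysm and dissection in mice, and PBS is the saline vehicle. The sources used here state no age, dose or duration, nor which part of Cthrc1 is deleted. Titles split each kind of mouse into 3 libraries whose names start with F and 3 whose names do not, called the F set and the plain set below. Nothing in the labels says that the libraries of a group came from separate animals, so the p-values reflect only how far these libraries spread, and that spread may be technical.

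Fibroblasts of the adventitia, the outer layer of the aorta, make its collagen and in health carry few contractile or repair genes. After injury a part of them changes state, makes large amounts of matrix and shows surface proteins that resting fibroblasts carry little of. Cthrc1, Postn and Fn1 encode secreted proteins. Cthrc1 has a short collagen triple helix and is known from injured arteries, Postn (periostin) is a matrix protein that binds integrins and helps collagen cross-linking, and Fn1 (fibronectin) is the scaffold on which cells assemble matrix. Fap, Pdpn and Lrrc15 encode proteins of the cell surface. Fap is a serine protease related to Dpp4, Pdpn (podoplanin) is a mucin-like protein that binds the platelet receptor Clec1b, and Lrrc15 is a leucine-rich repeat protein known to be induced in fibroblasts by TGF-β.

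The 250 bases before the gene start were available for Postn, Lrrc15 and Pdpn, and they are shown because these genes behaved differently: Postn was abundant and not called, Lrrc15 was called in wild type aortas, and Pdpn was called in both genotypes. The sequences are RefSeq promoters of build GRCm38.p6, at chr3:54360857-54361106 on the plus strand for Postn, chr16:30283255-30283504 on the minus strand for Lrrc15 and chr4:143299565-143299814 on the minus strand for Pdpn. Each ends at the base before the RefSeq start. Capitals mark any match to a TATA box, an AP-1 site or a TEAD site.
Postn: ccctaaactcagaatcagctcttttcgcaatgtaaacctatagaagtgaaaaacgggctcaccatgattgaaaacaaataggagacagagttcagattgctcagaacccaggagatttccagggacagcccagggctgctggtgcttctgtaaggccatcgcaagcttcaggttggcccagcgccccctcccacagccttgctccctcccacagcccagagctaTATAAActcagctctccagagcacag
Lrrc15: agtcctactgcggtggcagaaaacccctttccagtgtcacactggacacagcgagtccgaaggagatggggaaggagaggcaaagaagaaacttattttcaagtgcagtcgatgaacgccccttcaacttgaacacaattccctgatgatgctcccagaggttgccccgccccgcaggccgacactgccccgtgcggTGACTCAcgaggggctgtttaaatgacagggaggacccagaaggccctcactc
Pdpn: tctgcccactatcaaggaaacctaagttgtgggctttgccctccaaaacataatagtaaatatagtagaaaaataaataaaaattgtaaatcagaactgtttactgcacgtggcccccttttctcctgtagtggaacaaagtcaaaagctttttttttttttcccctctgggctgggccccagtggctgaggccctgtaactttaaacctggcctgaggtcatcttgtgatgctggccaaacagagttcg

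Both strands were searched. The letters were TATAAA for the TATA box. Those for an AP-1 site were TGANTCA. Those for a TEAD site were GGAATG. The Postn window has a TATA match whose first base lies 26 bases before the start. The Lrrc15 window has an AP-1 match 53 bases before the start. The Pdpn window has none of these letters. Of 32851 promoters of the same length in the table, 12.4% hold the TATA letters, 6.7% the AP-1 letters and 12.6% the TEAD letters. A second RefSeq promoter of Postn, whose start lies 1842 bases away from the deposited start, is not shown. The matches are descriptions of letters and were not tied to any binding data.

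Total counts per library ran from 39002048 to 82040703, with 9.6 to 31.9% in mitochondrial genes, and 24623 genes were tested. The F set held 188 to 1019 CPM of Xist and at most 1.32 CPM of Ddx3y, against at most 14.5 CPM of Xist and 43.5 to 118 CPM of Ddx3y in the plain set. In 5 libraries the small nuclear RNA Rn7sk stood at 4.82 to 24.8 CPM, against at most 1.42 CPM in the other 19: replicate 1 of the F-set treated Cthrc1-/- group, replicate 2 of both Cthrc1-/- PBS groups, and replicates 2 and 3 of the F-set wild type PBS group. In 4 libraries, all of treated wild type aortas, 5 intestinal markers summed to 81.9 to 238 CPM, against at most 12.5 CPM in the other 20: replicate 2 of the F set and replicates 1, 2 and 3 of the plain set. These CPM values are relative to the total count. Fits below without these 4 libraries keep only replicates 1 and 3 of the F set as treated wild type libraries. The part of the smaller number of libraries in calls lost by such fits was not tested.

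Cthrc1 lies at chr15:39076932-39087121 on the plus strand (GRCm38), and its reads check the genotype labels. In Cthrc1-/- aortas it had 1.79 CPM in the lowest, 4.56 in the median and 10.5 in the highest treated library, against 0.165, 0.396 and 0.547 CPM under PBS. In wild type aortas it had 26.5, 60.4 and 112 CPM under Ang-II/BAPN, against 1.52, 1.71 and 2.47 CPM under PBS. CPM is a count as a share of the scaled library total, and values here and below use TMM factors for that scaling. Every Cthrc1-/- library was below every wild type library of the same treatment, and every treated library was above every PBS library of its genotype. The mean in treated Cthrc1-/- aortas was 7.21% of that in treated wild type aortas, and under PBS it was 19.5%. Reads of the gene were thus present in Cthrc1-/- libraries, with 91 to 873 counts under Ang-II/BAPN and 12 to 44 under PBS. Gene-level counts do not show which exons they came from. The treated Cthrc1-/- and wild type PBS libraries overlapped, so that the order of the 2 middle groups is not beyond their spread.

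The treatment raised Cthrc1 by a log2 fold change of 3.71 ± 0.44 (SE) in Cthrc1-/- aortas (edgeR adjusted p = 2.27e-05) and by 5.19 ± 0.45 in wild type aortas (adjusted p = 8.06e-07). It was higher in 6 of 6 treated libraries than in any PBS library of the same genotype. In treated Cthrc1-/- aortas, set against treated wild type aortas, it fell by 3.83 ± 0.42 on the log2 scale (adjusted p = 0.000491). That call was lost when only these 12 libraries entered the fit, where no gene passed the test: the difference was then -3.86 with an adjusted p of 0.0647. Within the sets, where 0.00812% of tested genes (plain set) and 0.146% (F set) passed in either direction, Cthrc1 passed in both, at -3.99 ± 0.60 (adjusted p = 0.0266) and -3.67 ± 0.59 (adjusted p = 0.0336). Without the 4 libraries with intestinal transcripts it was again called, at -3.70 (adjusted p = 0.0279), as the only lower gene among 8 called.

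Under PBS the Cthrc1 difference was -2.35 ± 0.42 (adjusted p = 0.18) although the 6 Cthrc1-/- and 6 wild type libraries did not overlap. No gene passed edgeR's test in that comparison (0% of tested genes), against 954 at an unadjusted p under 0.05, while DESeq2 called 68 higher and 20 lower, Cthrc1 among the lower ones at -2.35 with an adjusted p of 7.1e-06. The response to treatment in Cthrc1-/- aortas minus that in wild type aortas was -1.48 ± 0.56 and did not pass (adjusted p = 0.267). No gene passed edgeR's test of that interaction (0%), against 3132 at an unadjusted p under 0.05. DESeq2 called 252 genes higher and 347 lower there, and limma on log2(FPKM + 1) called 4 and 77, with Cthrc1 among them at -2.81 (adjusted p = 0.0074). Adding 1 shrinks differences between small values, and Cthrc1 had 0.092 to 0.308 FPKM in Cthrc1-/- PBS aortas. Its treatment effect in Cthrc1-/- aortas was 1.559 with limma, so the limma interaction is not on the same footing as edgeR's.

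**Figure D1:**
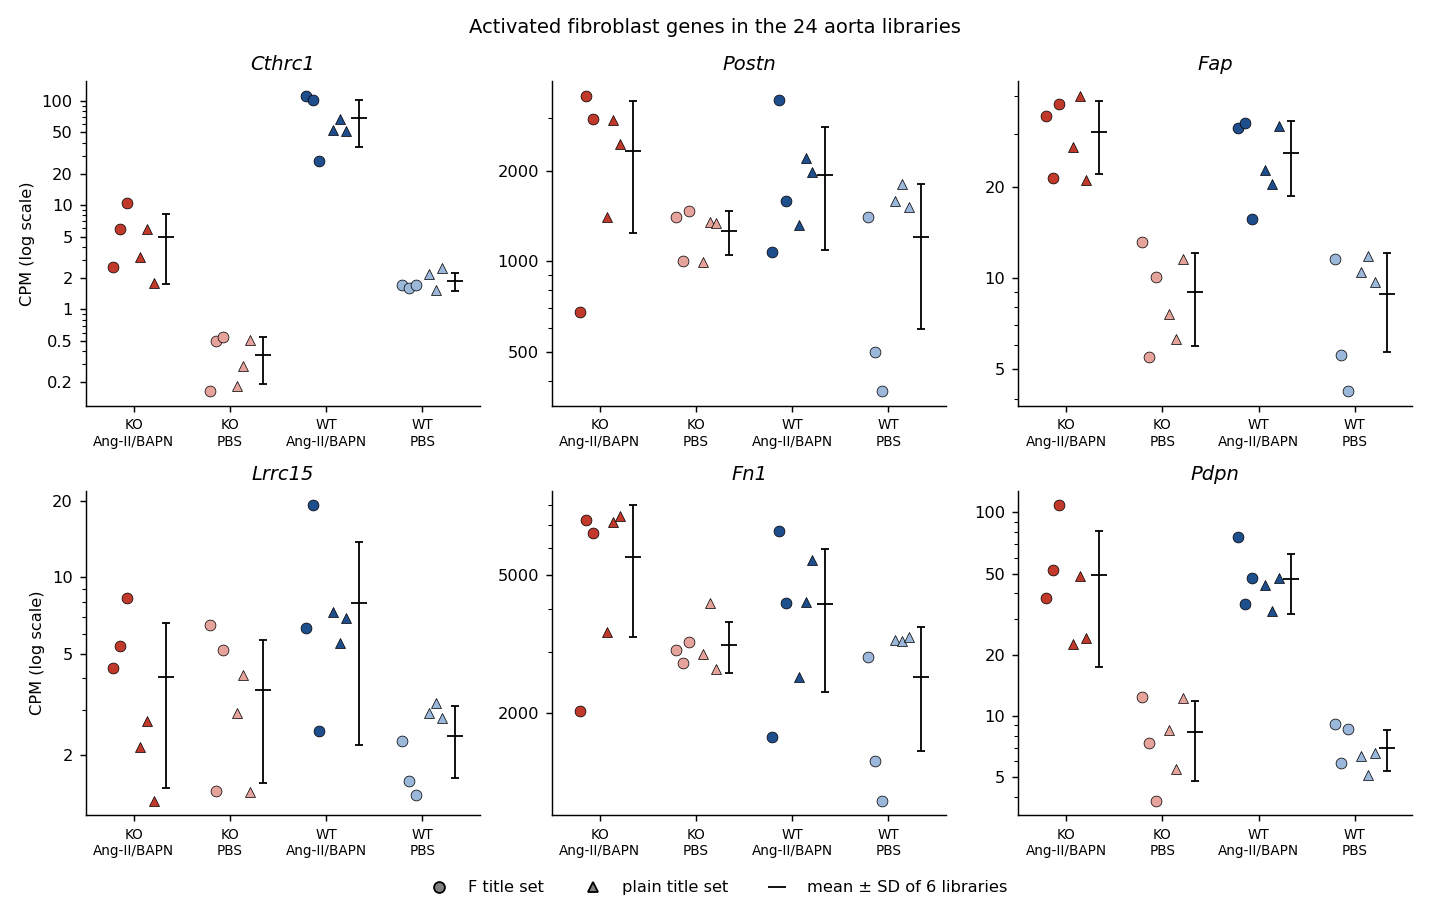
CPM (log axis) of the 6 genes in each of the 24 libraries, as circles for the F set and triangles for the plain set, with the mean ± SD of the 6 libraries of each genotype and treatment beside them. Treated and PBS libraries do not overlap for Cthrc1, Fap and Pdpn in either genotype, while Postn, Fn1 and Lrrc15 have libraries of one treatment within the range of the other. The share of all tested genes without such overlap was not counted.

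Of the 6 genes, 3 were called higher by the treatment in Cthrc1-/- aortas (Cthrc1, Fap and Pdpn) and 4 in wild type aortas (the same 3 and Lrrc15), where 7.03% and 13.3% of tested genes were called higher. None of the 6 was called lower. The median log2 fold change of the 6 was 1.32 in Cthrc1-/- aortas, beside -0.03 for all tested genes, and 1.67 in wild type aortas, beside 0.01. The 6 genes were chosen with earlier results of these data known. Their counts and medians are therefore descriptions and no test against all genes. Within Cthrc1-/- aortas the same 3 genes passed in each set, beside 1.62% (plain set) and 4.4% (F set) of all tested genes called higher. Within wild type aortas Cthrc1 and Pdpn passed in the plain set, where 4.72% were called higher, and Cthrc1, Fap, Lrrc15 and Pdpn in the F set, where 7.85% were. In bulk aorta, more cells of a type and more RNA per cell cannot be told apart.

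**Figure D2:**
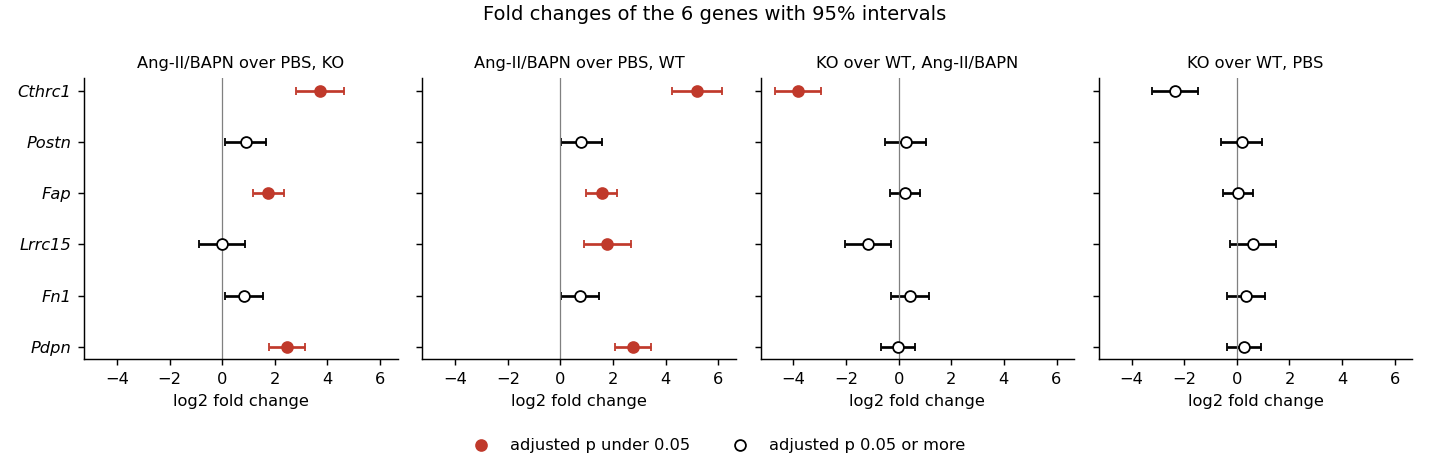
Log2 fold changes of the 6 genes with 95% intervals for Ang-II/BAPN over PBS in Cthrc1-/- (KO) and wild type (WT) aortas and for KO over WT under each treatment, filled where the edgeR adjusted p was under 0.05. The largest rises were those of Cthrc1, 3.71 in KO and 5.19 in WT aortas, and the one filled point between genotypes is Cthrc1 under Ang-II/BAPN at -3.83.

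Postn, at chr3:54361109-54391037 on the plus strand, encodes periostin. Treated Cthrc1-/- aortas had 676 CPM in the lowest, 2700 in the median and 3550 in the highest library, against 990, 1340 and 1470 CPM under PBS. Treated wild type aortas had 1070, 1790 and 3450 CPM, against 369, 1460 and 1800 CPM in wild type PBS aortas. In Cthrc1-/- aortas 4 of 6 treated libraries were above every PBS library and 1 was below every one. In wild type aortas 3 of 6 were above. The log2 fold change was 0.89 ± 0.38 in Cthrc1-/- aortas (edgeR adjusted p = 0.143) and 0.80 ± 0.38 in wild type aortas (adjusted p = 0.13).

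Single libraries changed these calls. Without replicate 1 of the F-set treated Cthrc1-/- group, which held 676 CPM and is among the libraries with high Rn7sk, Postn was called at 1.08 (edgeR adjusted p = 0.0384) and Fn1 at 1.005 (adjusted p = 0.0463), so that 5 of the 6 genes were called. In that fit 2070 of 25642 tested genes were called higher in Cthrc1-/- aortas, against 1730 of 24623 with all libraries. Without all 5 libraries with high Rn7sk, Postn was called in Cthrc1-/- aortas at 1.095 (adjusted p = 0.0441). In wild type aortas, leaving out replicate 1 of the F-set PBS group gave calls for Postn at 1.22 (adjusted p = 0.0195) and Fn1 at 1.03 (adjusted p = 0.0394), and leaving out replicate 1 of the F-set treated group gave a call for Fn1 at 0.95 (adjusted p = 0.044). With all 5 libraries with high Rn7sk left out, the wild type values were 0.38 for Postn and 0.45 for Fn1, neither of them called, and Fn1 in Cthrc1-/- aortas was 1.14 (adjusted p = 0.0593). Without the 4 libraries with intestinal transcripts, the wild type values were 0.355 and 0.42.

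Fn1, at chr1:71585520-71653175 on the minus strand, encodes fibronectin. Treated Cthrc1-/- aortas had 2030, 6870 and 7430 CPM in the lowest, median and highest library, against 2690, 3010 and 4160 CPM under PBS. Treated wild type aortas had 1700, 4180 and 6700 CPM, against 1120, 3080 and 3320 CPM under PBS. In each genotype 4 of 6 treated libraries were above every PBS library. The log2 fold change was 0.84 ± 0.35 in Cthrc1-/- aortas (edgeR adjusted p = 0.129) and 0.76 ± 0.35 in wild type aortas (adjusted p = 0.117). The gene overlaps Apol7d on the opposite strand, which had 327 counts over all libraries beside 6302945 for Fn1.

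Fn1 and Postn stood far above the other 4 genes per length. By the authors' deposited FPKM, Fn1 averaged 456 ± 204 in treated and 237 ± 22.0 in PBS Cthrc1-/- aortas, and 358 ± 157 in treated and 185 ± 86.1 in PBS wild type aortas (SD, n = 6 each). Postn averaged 253 ± 124 in treated and 129 ± 25.3 in PBS Cthrc1-/- aortas, and 224 ± 95.9 in treated and 118 ± 65.5 in PBS wild type aortas. Over the 24 libraries Postn varied 9.61-fold and Fn1 6.64-fold in CPM, but the ratio of Postn to Fn1 in FPKM stayed within 0.434 to 0.846, a 1.95-fold range. Fn1 was thus above Postn in every library. Of the 4 libraries lowest in Fn1, 3 were among those with high Rn7sk: the treated Cthrc1-/- library named above and replicates 2 and 3 of the F-set wild type PBS group. The other one, replicate 1 of the F-set treated wild type group, held the highest ratio of Postn to Fn1, the highest summed macrophage markers, 1150 CPM, and the lowest summed smooth muscle markers, 1520 CPM, of all 24 libraries. The remaining libraries with high Rn7sk were not among the lowest. Replicate 2 of the Cthrc1-/- PBS group had 2785 CPM of Fn1 in the F set and 4158 CPM in the plain set. The part of these differences in the Postn and Fn1 values was not tested.

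**Figure D3:**
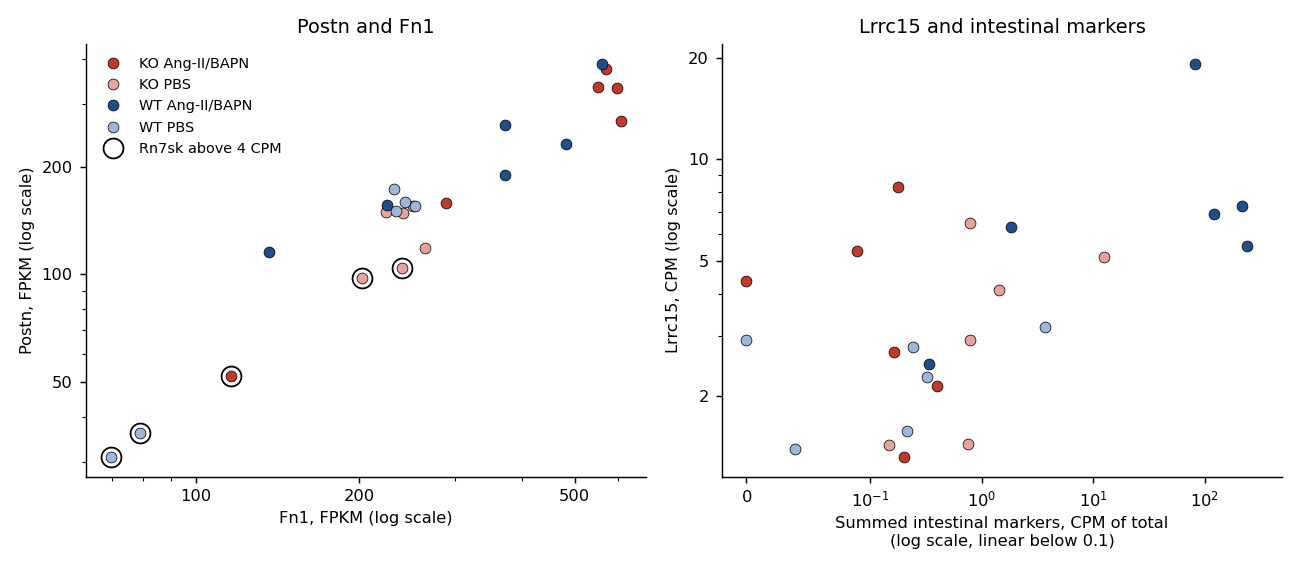
Left, Postn against Fn1 in deposited FPKM (log axes) in each of the 24 libraries, with rings around the 5 libraries with more than 4 CPM of Rn7sk. Right, Lrrc15 in TMM-scaled CPM (log axis) against the summed CPM of 5 intestinal markers relative to the total count (log axis, linear below 0.1). The Rn7sk values are also relative to the total count. The points on the left lie along one line with ratios of 0.434 to 0.846, and the 4 treated wild type libraries on the far right have 5.53 to 19.2 CPM of Lrrc15.

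Fap, at chr2:62500943-62574075 on the minus strand, encodes the fibroblast activation protein, a surface protease. Treated Cthrc1-/- aortas had 21.1, 30.8 and 40.0 CPM in the lowest, median and highest library, against 5.50, 8.83 and 13.1 CPM under PBS. Treated wild type aortas had 15.7, 27.1 and 32.6 CPM, against 4.23, 10.1 and 11.8 CPM under PBS. Every treated library was above every PBS library of its genotype. The log2 fold change was 1.75 ± 0.28 in Cthrc1-/- aortas (edgeR adjusted p = 0.00039) and 1.56 ± 0.28 in wild type aortas (adjusted p = 0.00046). In the plain set of wild type aortas it was 1.23 ± 0.40 and missed the threshold (adjusted p = 0.0601), against 1.90 ± 0.40 in the F set (adjusted p = 0.00403). The difference between the sets, 0.67 ± 0.55, did not pass its own test (adjusted p = 0.837).

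Pdpn, at chr4:143267431-143299564 on the minus strand, encodes podoplanin. Treated Cthrc1-/- aortas had 22.5, 43.3 and 108 CPM in the lowest, median and highest library, against 3.84, 7.94 and 12.4 CPM under PBS. Treated wild type aortas had 32.9, 45.6 and 75.6 CPM, against 5.15, 6.49 and 9.13 CPM under PBS. Again no treated library overlapped the PBS libraries of its genotype. The log2 fold change was 2.47 ± 0.32 in Cthrc1-/- aortas (edgeR adjusted p = 5.76e-05) and 2.76 ± 0.33 in wild type aortas (adjusted p = 7.17e-06). It passed in each set of each genotype, with the lowest value, 1.86 ± 0.45, in the plain set of Cthrc1-/- aortas and the highest, 3.07 ± 0.47, in their F set.

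Lymphatic endothelium is another known source of Pdpn. Its 6 markers summed to 55.6 to 100 CPM in treated and 43.6 to 186 CPM in PBS Cthrc1-/- aortas, with 0 of 6 called, and to 89.2 to 157 CPM in treated and 64.5 to 96.5 CPM in PBS wild type aortas, with 3 of 6 called higher, 0 without the 5 libraries with high Rn7sk and 1 without the 4 with intestinal transcripts. Prox1, the transcription factor that sets lymphatic identity, averaged 8.95 ± 2.78 CPM in treated and 3.64 ± 1.21 CPM in PBS wild type aortas (SD, n = 6 each), and 2.91 ± 1.29 CPM in treated and 5.70 ± 3.59 CPM in PBS Cthrc1-/- aortas. The Cthrc1-/- count of 0 was not fixed: 1 was called higher without F-set replicate 1 of the Cthrc1-/- PBS group or F-set replicate 2 or 3 of the treated wild type group, and 1 lower without F-set replicate 3 of the treated Cthrc1-/- group. Of all tested genes, 7.03% were called higher and 4.4% lower in Cthrc1-/- aortas, and 13.3% higher in wild type aortas. The part of lymphatic endothelium in the Pdpn values was not tested. Mesothelial markers, of a surface layer that also carries Pdpn, had 0 of 5 called in either genotype and summed to at most 19.6 CPM in any library.

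Lrrc15, at chr16:30269302-30283256 on the minus strand, was the least abundant of the 6 in treated aortas of both genotypes. Treated Cthrc1-/- aortas had 4.38, 5.38 and 8.26 CPM in the F set and 2.13, 2.70 and 1.32 CPM in the plain set. Cthrc1-/- PBS aortas had 6.50, 1.44 and 5.15 CPM in the F set and 2.92, 4.11 and 1.43 CPM in the plain set. Treated and PBS libraries of Cthrc1-/- aortas spanned nearly the same range, and the log2 fold change was 0.00 ± 0.42 (edgeR adjusted p = 1), with a 95% interval of -0.88 to 0.88.

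Treated wild type aortas had 6.30, 19.2 and 2.49 CPM of Lrrc15 in the F set and 7.29, 5.53 and 6.91 CPM in the plain set. Wild type PBS aortas had 2.27, 1.58 and 1.39 CPM in the F set and 2.92, 3.20 and 2.79 CPM in the plain set. In this genotype 5 of 6 treated libraries were above every PBS library. The log2 fold change was 1.78 ± 0.42 (edgeR adjusted p = 0.00442), made up of 2.41 ± 0.61 in the F set (adjusted p = 0.013) and 1.15 ± 0.59 in the plain set (adjusted p = 0.249). Without the 4 libraries with intestinal transcripts it was 0.57 and no longer called (adjusted p = 0.583). Of the 2 treated wild type libraries then left, both of the F set, 1 had 6.30 CPM of Lrrc15 with 1.85 CPM of summed intestinal markers, and the other had 2.49 CPM with 0.336 CPM. These intestinal sums, unlike the Lrrc15 values, are relative to the total count. A part of intestinal RNA in the Lrrc15 values was not tested.

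The response of Lrrc15 in Cthrc1-/- aortas minus that in wild type aortas was -1.78 ± 0.59, which did not pass (edgeR adjusted p = 0.205), so that a rise particular to wild type aortas was not shown. In treated Cthrc1-/- aortas, set against treated wild type aortas, Lrrc15 differed by -1.16 ± 0.42 (adjusted p = 0.0958). DESeq2 called this difference at -1.19 (adjusted p = 0.0342), as did edgeR without replicate 3 of the F-set treated wild type group, at -1.38 (adjusted p = 0.0324). Without the 4 libraries with intestinal transcripts it was 0.01 (adjusted p = 0.999).

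**Figure D4:**
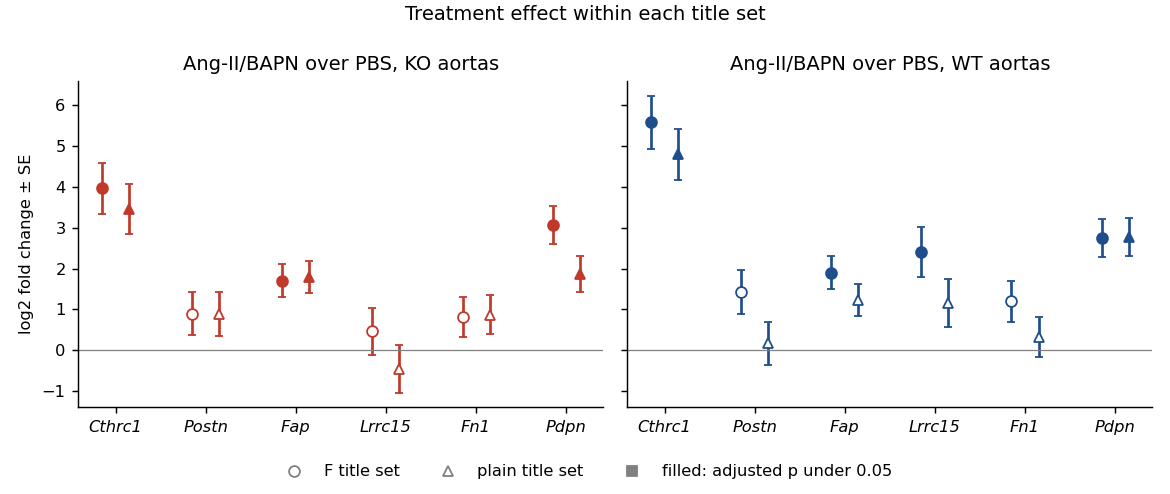
Log2 fold changes ± SE of Ang-II/BAPN over PBS in Cthrc1-/- (KO, left) and wild type (WT, right) aortas, fitted within the F set (circles) and the plain set (triangles), with filled symbols where the edgeR adjusted p was under 0.05. Cthrc1 and Pdpn are filled in all 4 combinations, and Lrrc15 is filled in the F set of WT aortas, at 2.41, and in no other.

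Between genotypes, 1 of the 6 genes, Cthrc1, was called under Ang-II/BAPN, where 6.13% of tested genes were called in either direction. For the other 5 the treated Cthrc1-/- minus wild type difference and its 95% interval on the log2 scale were 0.27 (-0.51 to 1.05) for Postn, 0.23 (-0.34 to 0.81) for Fap, -1.16 (-2.02 to -0.29) for Lrrc15, 0.44 (-0.27 to 1.16) for Fn1 and -0.03 (-0.66 to 0.61) for Pdpn. Averaged over the sets, the intervals of Fap and Pdpn leave out a 2-fold difference, that is 1 on the log2 scale, in either direction. Within 1 set they do not. They reached 1.05 for Fap and -1.28 for Pdpn in the plain set, and 1.04 and 1.23 in the F set. The averaged intervals of Postn and Fn1 do not leave out a rise of that size, and that of Lrrc15 does not leave out such a fall. Under PBS the same differences were 0.18 for Postn, 0.05 for Fap, 0.62 for Lrrc15, 0.36 for Fn1 and 0.27 for Pdpn, each with an adjusted p of 1.

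A difference between the sets was not shown for any of the 6 genes: no treatment effect, genotype effect or interaction of the F set minus that of the plain set passed edgeR's test, for these or for any other gene, against 638 to 2066 genes at an unadjusted p under 0.05. The 2 largest such differences by size were those of Lrrc15 in the genotype effect under PBS, 1.40 ± 0.83 (adjusted p = 0.63), and of Lrrc15 in the wild type treatment effect, 1.27 ± 0.82 (adjusted p = 0.82).

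By deposited FPKM, treated wild type aortas ranked Fn1 first, then Postn, Cthrc1 (43.0 ± 18.8), Pdpn (25.9 ± 7.40), Fap (4.55 ± 1.14) and Lrrc15 (1.49 ± 1.06; SD, n = 6 each). Cthrc1 and Pdpn overlapped there, with 17.3 to 66.2 and 18.7 to 39 FPKM, as did Fap and Lrrc15, with 2.87 to 5.67 and 0.487 to 3.54. In treated Cthrc1-/- aortas Pdpn averaged 25.0 ± 17.6, Fap 4.87 ± 1.49, Cthrc1 2.93 ± 2.04 and Lrrc15 0.688 ± 0.467 FPKM, and Cthrc1 overlapped Fap and Lrrc15. In wild type PBS aortas Pdpn averaged 3.14 ± 0.94, Fap 1.32 ± 0.591, Cthrc1 0.961 ± 0.283 and Lrrc15 0.370 ± 0.145 FPKM. Under PBS the wild type Cthrc1 values, 0.636 to 1.37 FPKM, overlapped those of Fap, 0.542 to 1.91, and lay above those of Lrrc15, 0.186 to 0.5.

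Among treated libraries, the level of each other gene was set against that of Cthrc1, separately in the 6 Cthrc1-/- and the 6 wild type libraries, with exact permutation tests over 10 relations. None passed after Benjamini-Hochberg adjustment. The closest was Pdpn in Cthrc1-/- aortas, with a Pearson r of 0.894 (exact p = 0.0208, adjusted 0.208) and a Spearman rho of 0.829 (exact p = 0.0583, adjusted 0.292), and r was 0.680 without the 2 libraries farthest from the median of Cthrc1. Fap in wild type aortas had r = 0.787 (exact p = 0.0667, adjusted 0.273) and rho = 0.486 (exact p = 0.356), and r was 0.334 without the 2 farthest. Each set has 3 libraries per group, too few for a value within a set.

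Among the 12 wild type libraries, treated and PBS libraries did not overlap for Cthrc1, Pdpn and Fap, and overlapped for Lrrc15, Postn and Fn1. How many of all tested genes lacked such overlap was not counted, so this is not read as a trait of these genes. Over these 12 libraries the Pearson r of log2 CPM with Cthrc1 was 0.955 for Pdpn, 0.886 for Fap, 0.825 for Lrrc15, 0.506 for Postn and 0.448 for Fn1. These are descriptions of libraries that share the treatment contrast. Of 13514 genes compared in the same way, those most like Cthrc1 included Srpx2 (0.984), a secreted sushi-repeat protein, Myo7a (0.983), an unconventional myosin, Ptk2b (0.98), a focal adhesion kinase relative, and Gpr137b-ps (0.977), a pseudogene whose reads may be shared with its parent gene. Against the mean of the other 5 members over all 24 libraries, the most alike were Egfr (0.965), the epidermal growth factor receptor, Col5a1 (0.95) and Col5a2 (0.943), chains of a collagen that starts fibrils, Adam9 (0.949), a membrane metalloprotease, and Fbn1 (0.946), the main protein of microfibrils.

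Most other genes of activated fibroblasts that were listed rose with the treatment in both genotypes. Of a list of 21, 14 were called higher and 0 lower in Cthrc1-/- aortas, with a median log2 fold change of 1.56, and 17 higher and 0 lower in wild type aortas, with a median of 2.17. Of all tested genes, 7.03% were called higher and 4.4% lower in Cthrc1-/- aortas, and 13.3% and 11.5% in wild type aortas. The list was put together with earlier results of these data known, so its counts are no test against these shares. Runx1, a transcription factor, averaged 49.3 ± 37.2 CPM in treated and 4.04 ± 1.76 CPM in PBS Cthrc1-/- aortas, and 57.5 ± 13.0 CPM in treated and 2.76 ± 1.18 CPM in PBS wild type aortas (SD, n = 6 each). Its log2 fold change was 3.58 in Cthrc1-/- aortas (edgeR adjusted p = 3.85e-05) and 4.43 in wild type aortas (adjusted p = 2.43e-06). Col12a1, a collagen of fibril surfaces, rose by 3.18 in Cthrc1-/- and 3.49 in wild type aortas. Ltbp2, a microfibril protein, rose by 2.59 and 2.26, and Col5a2 by 1.84 and 1.92. Between treated Cthrc1-/- and treated wild type aortas 0 of the 21 were called with edgeR, and the median difference was 0.04. Of all tested genes, 6.13% were called there in either direction.

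**Figure D5:**
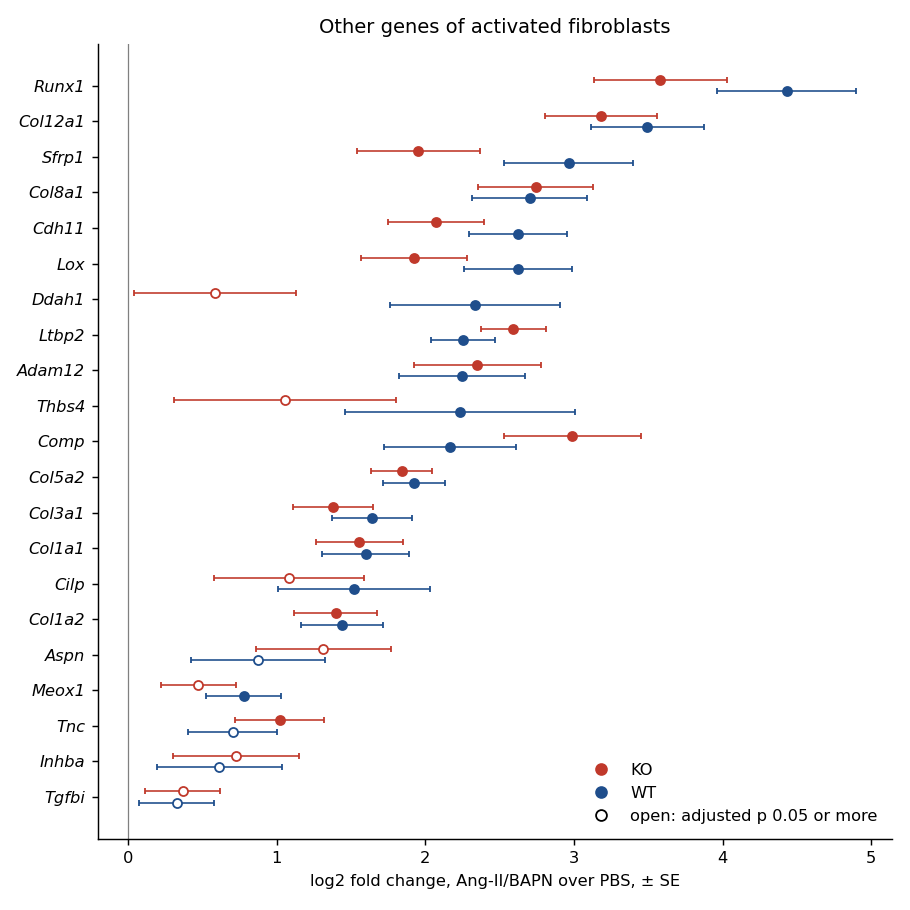
Log2 fold changes ± SE of Ang-II/BAPN over PBS for 21 other genes of activated fibroblasts in Cthrc1-/- (KO, red) and wild type (WT, blue) aortas, filled where the edgeR adjusted p was under 0.05. All values lie above 0, from Runx1 at 3.58 in KO and 4.43 in WT aortas down to Tgfbi at 0.37 in KO and 0.33 in WT aortas.

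Those counts changed little in the added fits. Without the 5 libraries with high Rn7sk, 14 of 21 were called higher in Cthrc1-/- and 13 in wild type aortas, and without the 4 libraries with intestinal transcripts 14 were called in each. Leaving out any 1 library gave 13 to 15 in Cthrc1-/- and 14 to 17 in wild type aortas. The totals over all tested genes also differed between fits. Without the libraries with high Rn7sk, 1829 of 26381 genes were called higher in Cthrc1-/- and 2432 in wild type aortas. Without those with intestinal transcripts, 1627 and 2165 of 25338 were. Leaving out any 1 library gave 1250 to 2070 and 2605 to 3839.

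Of 10 markers of resting adventitial fibroblasts, 5 were called higher and 0 lower in Cthrc1-/- aortas, and 1 higher and 2 lower in wild type aortas. The shares of all tested genes were 7.03% higher and 4.4% lower in Cthrc1-/- aortas, and 13.3% and 11.5% in wild type aortas. Between treated genotypes 4.26% of all tested genes were higher in Cthrc1-/- aortas. Without the 5 libraries with high Rn7sk the Cthrc1-/- counts were 1 higher and 2 lower, and leaving out any 1 library gave 2 to 6 higher and 0 to 2 lower. The count higher was 2 without replicate 2 of the plain-set PBS or treated group, and 3 without replicate 2 or 3 of the F-set PBS group, replicate 3 of the F-set treated group or replicate 1 of the plain-set PBS group. It was 3, with 2 lower, without replicate 1 of the F-set treated group. Between treated genotypes 3 of the 10 were called higher in Cthrc1-/- aortas, 2 without the libraries with high Rn7sk, 0 without those with intestinal transcripts and 1 to 4 when each library was left out (1 without F-set replicate 1 of the treated Cthrc1-/- group or plain-set replicate 1 or 2 of the treated wild type group). Pdgfra, the growth factor receptor carried by most fibroblasts, rose by 1.01 in Cthrc1-/- aortas (edgeR adjusted p = 0.0243), and was at 0.85 without the libraries with high Rn7sk (adjusted p = 0.0511). It was the 1 marker called higher in wild type aortas, at 0.84 (adjusted p = 0.0327), and this call did not hold. It was lost without the libraries with high Rn7sk (0.46, adjusted p = 0.271), without those with intestinal transcripts (0.67, adjusted p = 0.306), and without any 1 of 7 libraries: replicate 2 or 3 of the F-set PBS group, replicate 2 of the F-set treated group, replicate 1 or 2 of the plain-set PBS group, or replicate 1 or 3 of the plain-set treated group. Without replicate 1 of the F-set PBS group 3 markers were called higher in wild type aortas. Clec3b, a secreted protein of resting fibroblasts, fell by 3.05 in wild type aortas (adjusted p = 0.000437), where Gsn fell by 1.37. In Cthrc1-/- aortas Clec3b was at -1.36 (adjusted p = 0.098).

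Partners and relatives of the 6 proteins formed a list of 18. In Cthrc1-/- aortas 4 were called higher and 0 lower, in wild type aortas 6 higher and 2 lower, and between the treated genotypes 1 was called, higher in Cthrc1-/- aortas (Itgb5, an integrin chain that binds periostin, named after its value was seen, at 0.84, and 0 without the libraries with intestinal transcripts). Without replicate 1 of the F-set treated Cthrc1-/- group 8 were called higher in Cthrc1-/- aortas, beside 2070 of 25642 tested genes. With all libraries 7.03% of tested genes were called higher and 4.4% lower in Cthrc1-/- aortas, and 13.3% and 11.5% in wild type aortas. Between treated genotypes 4.26% of tested genes were higher in Cthrc1-/- aortas. Ror2, a Wnt receptor reported to bind Cthrc1, averaged 10.6 ± 4.68 CPM in treated and 2.32 ± 0.785 CPM in PBS Cthrc1-/- aortas, and 9.38 ± 1.60 CPM in treated and 2.17 ± 0.424 CPM in PBS wild type aortas (SD, n = 6 each). It rose by 2.19 in Cthrc1-/- aortas (edgeR adjusted p = 5.87e-05) and by 2.11 in wild type aortas (adjusted p = 2.73e-05). Bmp1, a protease that periostin helps to act on lysyl oxidase, rose by 1.23 in Cthrc1-/- and 0.91 in wild type aortas. Cd44, a receptor known to bind podoplanin, rose by 2.06 and 2.18.

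Itga8, an integrin chain of smooth muscle that binds fibronectin, fell by 1.91 in wild type aortas (edgeR adjusted p = 0.0038) and was at -0.76 in Cthrc1-/- aortas (adjusted p = 0.305). Dpp4, the protease related to Fap, and Ezr, the cytoskeletal linker of podoplanin, were called higher in wild type aortas (2.06 and 1.35, named after their values were seen) and are also abundant in intestine. Dpp4 reached 32.1 CPM in a treated wild type library and at most 4.43 CPM in wild type PBS libraries. Without the 4 libraries with intestinal transcripts neither was called, with Dpp4 at 1.31 (edgeR adjusted p = 0.287) and Ezr at 0.94 (adjusted p = 0.208), and the list had 3 called higher in wild type aortas. Without the 5 libraries with high Rn7sk Dpp4 was at 1.65 (adjusted p = 0.0892) and Ezr at 1.15 (adjusted p = 0.0924).

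Genes of the TGF-β pathway, which induces several of the 6 genes in fibroblasts, were called in both directions in wild type aortas. Of 16, 4 were called higher and 0 lower in Cthrc1-/- aortas, and 3 higher and 3 lower in wild type aortas. Of all tested genes, 7.03% were called higher and 4.4% lower in Cthrc1-/- aortas, and 13.3% and 11.5% in wild type aortas. Counts this small are not read as a result about the pathway. Tgfb1, the ligand, rose by 0.63 in Cthrc1-/- (edgeR adjusted p = 0.0377) and 0.79 in wild type aortas (adjusted p = 0.00509). The feedback inhibitors Smad6, Smad7 and Pmepa1 fell in wild type aortas by 1.03, 0.73 and 0.67, and had values of 0.14, 0.16 and 0.39 in Cthrc1-/- aortas, none of them called. Under Ang-II/BAPN 6 of the 16 were called higher in Cthrc1-/- than in wild type aortas, among them Pmepa1, with 311 ± 84.9 CPM in treated Cthrc1-/- and 155 ± 36.5 CPM in treated wild type aortas (SD, n = 6 each) and a difference of 0.97 (adjusted p = 0.00589). Of all tested genes, 4.26% were called higher in that comparison. Without the 4 libraries with intestinal transcripts 0 of the 16 were called between treated genotypes, and the median difference was 0.28 in place of 0.45. That fit called only 7 of 25338 tested genes higher and 1 lower. Leaving out any 1 library gave 2 to 6, and 2 without replicate 2 of the F-set or plain-set treated Cthrc1-/- group or replicate 1 of the plain-set treated wild type group. The wild type count of genes called higher became 7 without replicate 1 of the F-set PBS group and 1 without replicate 3 of that group, replicate 2 of the plain-set PBS group or replicate 3 of the plain-set treated group. The Cthrc1-/- count ran from 1 to 4, and was 1 without replicate 3 of the plain-set PBS group or replicate 2 or 3 of the plain-set treated group. The interaction was called for 0 of the 16.

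Markers of other cells moved with the treatment beside the 6 genes. Over all tested genes, 7.03% were called higher and 4.4% lower in Cthrc1-/- aortas, and 13.3% and 11.5% in wild type aortas. Between treated genotypes 4.26% of all tested genes were higher in Cthrc1-/- aortas. The 7 smooth muscle markers summed to 6850 to 13300 CPM in treated and 14500 to 29900 CPM in PBS Cthrc1-/- aortas, with 3 called lower, and to 1520 to 5620 CPM in treated and 17400 to 23600 CPM in PBS wild type aortas, with 7 called lower. Between treated genotypes 6 of these 7 were called higher in Cthrc1-/- aortas, and 0 without the 4 libraries with intestinal transcripts or 1 without replicate 1 of the F-set treated Cthrc1-/- group. The 3 lower calls in Cthrc1-/- aortas became 0 without the 5 libraries with high Rn7sk, and 0 to 4 when each library was left out. The 7 macrophage markers, all called higher in both genotypes, summed to 418 to 811 CPM in treated and 84.3 to 159 CPM in PBS Cthrc1-/- aortas, and to 411 to 1150 CPM in treated and 60.9 to 140 CPM in PBS wild type aortas. Of 5 blood endothelial markers 4 were called lower in each genotype. These became 2 in Cthrc1-/- aortas without replicate 2 of the plain-set treated group, and 2 in wild type aortas without the libraries with high Rn7sk or without those with intestinal transcripts. Of 8 cartilage and bone markers 3 were called higher in Cthrc1-/- and 5 in wild type aortas, among them Runx2 and Sox9 in both, and 2 in wild type aortas without the 4 libraries with intestinal transcripts. The wild type count was 3 without replicate 2 of the F-set PBS group, replicate 1 of the plain-set PBS group or replicate 1 of the plain-set treated group. Of 5 platelet markers 2 were called higher in Cthrc1-/- and 1 in wild type aortas, and they reached 222 CPM in a treated Cthrc1-/- and 385 CPM in a treated wild type library. Without the libraries with high Rn7sk the platelet counts were 3 in Cthrc1-/- and 2 in wild type aortas. The Cthrc1-/- count was 1 without the libraries with intestinal transcripts, and also without F-set PBS replicate 2 or 3, F-set treated replicate 2, plain-set PBS replicate 1 or 2, or plain-set treated replicate 3 of that genotype. The wild type count was 3 without replicate 2 of its plain-set PBS group.

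Markers of neighbouring organs also differed. Over all tested genes, the treatment gave 4.4% lower in Cthrc1-/- aortas and 13.3% higher in wild type aortas. Between treated genotypes 1.87% of all tested genes were lower in Cthrc1-/- aortas. The 5 intestinal markers were all called higher by the treatment in wild type aortas and all lower in treated Cthrc1-/- than in treated wild type aortas. They summed to at most 0.378 CPM in treated Cthrc1-/- aortas, where 1 of the 5 had no count, and to at most 3.78 CPM in wild type PBS aortas, where Lypd8 had none. These counts were 0 and 0 without the 4 libraries, which these markers chose, and 2 and 3 without the libraries with high Rn7sk. They were 3 and 2 without replicate 2 of the F-set treated wild type group, and the count between treated genotypes was 3 without replicate 1 of the F-set treated Cthrc1-/- group. Of 4 hepatocyte markers 1 was called lower by the treatment in Cthrc1-/- aortas and 3 lower in treated Cthrc1-/- than in treated wild type aortas. The 3 became 0 without the 4 libraries with intestinal transcripts, 1 without those with high Rn7sk and 0 to 3 when each library was left out: 0 without plain-set replicate 3 of the treated Cthrc1-/- group, and 1 without any of the other treated plain-set libraries but wild type replicate 3, F-set replicate 1 or 2 of the treated Cthrc1-/- group or F-set replicate 2 of the treated wild type group. The lower call in Cthrc1-/- aortas became 2 without the 4 libraries, 0 without those with high Rn7sk and 1 to 3 with each library left out (3 without F-set replicate 1 and 2 without F-set replicate 2 of the treated wild type group, and 2 without plain-set replicate 2 of the Cthrc1-/- PBS group). Of 5 kidney markers 1 was called lower by the treatment in Cthrc1-/- aortas, 0 in either added fit and 0 to 3 when each library was left out, with 0 in 8 of these 24 fits. The 8 libraries were F-set PBS replicates 1 and 2, all 3 F-set treated replicates, plain-set PBS replicate 3 and plain-set treated replicates 2 and 3 of the Cthrc1-/- aortas. The kidney count was 3 without plain-set replicate 2 of the treated wild type group, and 2 without replicate 1 or 3 of that group, F-set PBS replicate 3 or plain-set treated replicate 1 of the Cthrc1-/- aortas. The part of any of these tissues in the values of the 6 genes was not tested beyond the fits without the 4 libraries, where Cthrc1, Fap and Pdpn remained called in both genotypes.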

How the data were processed

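RNA of mouse aorta was sequenced with a stranded total RNA kit as paired 150-base reads, per the labels' protocols. HISAT2, StringTie, DESeq2 and build GRCm38 are named in the submitters' processing notes, without versions or roles, and the strand setting of the counting is not given in the sources used here. The deposited table holds whole-number counts per gene and FPKM values that the authors computed, and 4 of its columns, from 2 libraries, were not used. Counts were fitted with edgeR 4.0.16 (quasi-likelihood, robust, TMM, 8 group means) in R 4.3.3 after a filter at a minimum count of 10 and a total of 15, which left out 15518 of 40141 genes. Adjusted p is Benjamini-Hochberg over all 24623 genes tested, with a threshold of 0.05, and the common biological coefficient of variation was 57%. DESeq2 1.42.0 and limma 3.58.1 on log2(FPKM + 1) were alternatives, beside other scalings and filters, a title set term, fits of only the compared libraries, and leaving out each library. Fits without 5 libraries with over 4 CPM of Rn7sk, and without 4 with over 50 CPM of intestinal markers (with a title set term), were added after seeing the data. Both thresholds are CPM of the total count. Scripts were tested on simulated data. The members and lists were chosen with earlier results of these data known. Besides the members, the text names up to 4 genes a list with the smallest adjusted p for treatment in wild type aortas, and the 5 genes most like the members and most like Cthrc1 among 13514 with a mean of at least 2 CPM, of which 1 is not reported here. Itgb5, Dpp4, Ezr and Tgfbi were named after their values were seen.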

Additional observations from a re-analysis of the deposited data

Results flagged for a closer look

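In 4 of the 24 groups of 6 libraries examined (6 genes in each genotype and treatment), the highest library stood apart from the rest, with a gap to its neighbour that, as a share of the group's range, exceeded Dixon's 95% critical value. For normally distributed values, chance gives this in about 1 in 20 groups. The gaps were taken on CPM and not on the log2 scale of the fold changes. A normal distribution of the CPM values was not tested, so the 4 groups are not set against that rate. The gaps on the log2 scale were not examined. Lrrc15 had 19.2 CPM in replicate 2 of the F-set treated wild type group, a gap of 0.713 of the range, in a library that also held intestinal transcripts. Pdpn had 108 CPM in replicate 3 of the F-set treated Cthrc1-/- group (0.653) and 75.6 CPM in replicate 1 of the F-set treated wild type group (0.657), the library with the highest macrophage markers. Fn1 had 4160 CPM in replicate 2 of the plain-set Cthrc1-/- PBS group (0.644), a library with high Rn7sk. By deposited FPKM the same library did not stand apart, with 239.6 where the 6 Cthrc1-/- PBS libraries ran from 202 to 265. The part of these properties in the values was not tested.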

How the results depend on the processing

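The treatment calls of Cthrc1, Fap and Pdpn were kept under all 34 alternatives in both genotypes. In Cthrc1-/- aortas their log2 fold changes ran from 1.559 to 3.973, 1.258 to 1.896 and 2.187 to 2.711, and in wild type aortas from 4.373 to 5.397, 1.23 to 1.847 and 2.587 to 2.918. Between treated genotypes the number of the 6 genes called was 2 with DESeq2 and 0 with only the compared libraries, and 1 to 2 when each library was left out. It was 1 under PBS with DESeq2 and 1 in the interaction with limma on FPKM. In Cthrc1-/- aortas leaving out each library gave 3 to 5 of the 6 genes called, beside 1250 to 2070 tested genes called higher. In wild type aortas it gave 4 to 6 of them, beside 2605 to 3839 tested genes called higher. Values near 0 changed sign. Lrrc15 in Cthrc1-/- aortas was -0.014 with RLE scaling, -0.013 with DESeq2, -0.002 with genes of at least 1 CPM in 3 libraries, -0.008 with only the compared libraries and -0.204 to 0.207 when each library was left out. The treated genotype difference of Pdpn was 0.021 with a replicate block, 0.008 with an additive title set, 0.109 with the high-Rn7sk libraries left out and -0.307 to 0.146 with each library left out, and that of Lrrc15 was 0.011 without the libraries with intestinal transcripts. Under PBS, without the libraries with high Rn7sk, Postn was -0.23, Fap -0.079 and Fn1 -0.058, and Fap was -0.1 to 0.323 with each library left out. The interaction with limma on FPKM was -0.38 for Postn, -0.015 for Fap and -0.247 for Fn1, and with each library left out -0.359 to 0.399 for Postn, -0.11 to 0.332 for Fap and -0.216 to 0.34 for Fn1. The cause of these changes was not tested. Over all genes, 1049 were called higher and 461 lower in treated Cthrc1-/- than in treated wild type aortas, against 1806 and 1424 with DESeq2, 497 and 622 with limma on FPKM, 625 and 282 with no filter, 591 and 237 when high-Rn7sk libraries were left out, 7 and 1 when those with intestinal transcripts were, and 0 and 0 with only the compared libraries. With limma on FPKM 5090 were called higher and 1495 lower by treatment in wild type aortas, against 3277 and 2820. Deviations of same-numbered libraries from their group means correlated from -0.424 to 0.422, with 7 of 36 pairs over 0.1. A pairing by number was thus not shown. Differently numbered libraries were not compared, so the check cannot exclude a weak pairing. A replicate block gave 440 and 103 calls between treated genotypes and left the number of the 6 genes called at 3, 4, 1, 0 and 0 in the 5 comparisons. With 12 to 44 counts per library, Cthrc1 in Cthrc1-/- PBS aortas was the value most limited by depth among the 6.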
